A study of Mus musculus with 24 samples.

Results

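The collagen genes were taken as the rows of both count tables whose symbol is Col, a number, the letter a and a number, which gave 44 of 54658 symbols. They comprise 11 fibrillar collagens, 8 basement membrane collagens (Col4a1 to Col4a6, Col15a1 and Col18a1) and 25 others, of which 6 encode type VI chains, 9 FACIT collagens, 4 network-forming or anchoring collagens, 4 transmembrane collagens and 2 belong to none of these. RNA was sequenced from male C57BL/6 mice of 7 to 12 weeks in a pair of peritonitis models, without sham-operated or uninjected mice among the samples used here. Hearts and lungs came from the same mice 24 h after cecal ligation and puncture (CLP), a polymicrobial sepsis, with 3 mice given saline (0.9% NaCl, vehicle) and 3 given β-nicotinamide mononucleotide (β-NMN, a precursor of NAD+) intraperitoneally at 185 mg/kg right after surgery. The source label of these organs names thioglycollate peritonitis, whereas their titles, tissue labels and the study's methods give CLP, which is used here. Peritoneal cells were collected on day 3 after injection of 1 mL of Brewer thioglycollate medium (TGC), a sterile irritant, from 6 vehicle and 6 β-NMN mice dosed daily at 185 mg/kg or with saline from that injection on, and all were then plated and stimulated for 6 h with E. coli at 15 bacteria per cell. Since 2 of the β-NMN hearts are labelled as number 3, the one sharing its animal with the second β-NMN lung is named replicate 2 here.

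Collagens are triple helices of 3 α chains that cells secrete into the extracellular matrix. Fibrillar collagens (types I, III and V in most soft tissues) form the fibres made mainly by fibroblasts, type IV networks line the basement membranes under endothelium and epithelium, and FACIT collagens sit on the surface of fibrils. Type VI forms beaded filaments around cells, and the transmembrane collagens stay in the plasma membrane. In the heart and lung, fibroblasts, endothelial cells, pericytes and, in the lung, epithelial cells are the main sources, whereas macrophages make little of the fibrillar collagens.

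Total counts per library lay between 31126823 and 112456050 in peritoneal cells, between 27319513 and 68523239 in hearts and between 8915366 and 28356786 in lungs, the lowest being the lung of vehicle replicate 2. The labelled tissues carried their markers: cardiomyocyte markers summed to between 33910 and 48530 CPM (counts-per-million values on TMM-scaled library sizes) in hearts, lung epithelial markers to between 58240 and 103400 CPM in lungs, and macrophage markers to between 6530 and 13020 CPM in peritoneal cells. In these bulk samples, fewer cells of a type and less RNA per cell cannot be told apart.

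The first question was where collagen genes were expressed. Per length (CPM per kb of merged exon), type IV led in both organs. In the 6 hearts Col4a1 had a median of 157 (from 100.3 to 198) and Col4a2, its partner chain in the widespread α1α1α2 network, 126 (from 89.6 to 174). In the 6 lungs Col4a2 had a median of 133 (from 29.9 to 142) and Col4a1 109 (from 30.2 to 112). These ranges overlap, and the lowest lung value of both genes came from vehicle replicate 2. Type I followed: Col1a1, the α1 chain of type I collagen, had medians of 39.5 in hearts and 38.4 in lungs.

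In vehicle peritoneal cells the order was different. Col1a1 led with a median of 13.0 CPM per kb (from 4.04 to 69.6), followed by Col1a2 at 9.23 and Col6a1 at 7.67, while Col4a1 had a median of 1.73. The ranges of Col1a1, Col1a2 and Col6a1 overlapped widely. Of the 44 genes, 12 reached a median of 1 CPM per kb in vehicle peritoneal cells and 6 did in β-NMN cells, beside 17 in hearts and 20 in lungs. The peritoneal cells and the organs stand in separate tables, so these levels are set side by side without a test.

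**Figure D1:**
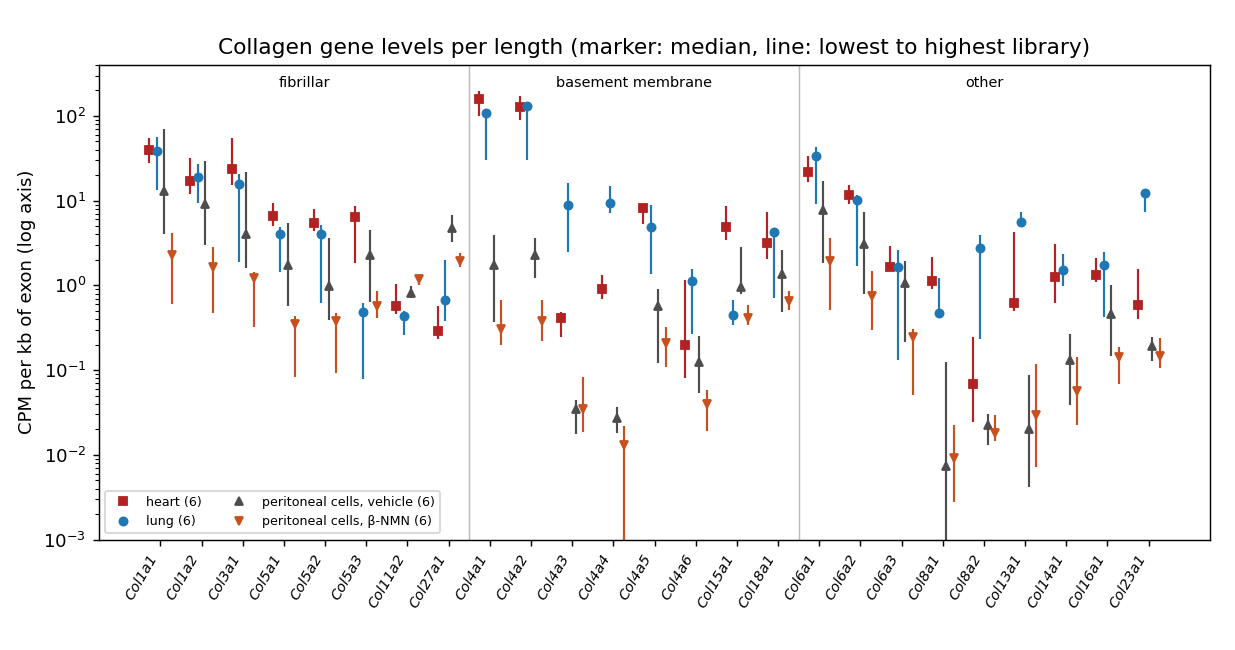
Level of each collagen gene with a median of at least 1 CPM per kb in one of the sample sets, on a log axis in CPM per kb of merged exon, for 6 hearts, 6 lungs and 6 vehicle and 6 β-NMN peritoneal cell libraries. Markers are medians and lines run from the lowest to the highest library (values under the axis limit end at it): the medians of Col4a1 and Col4a2 lie above 100 in both organs, with single lungs down to 30.2 and 29.9, and in peritoneal cells Col1a1 has the highest median.

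Chains that join in one trimer were compared with each other. Per length, Col1a1 stood at 1.16 to 2.40 times Col1a2 in vehicle peritoneal cells, 1.26 to 1.58 times with β-NMN, 1.76 to 2.45 times in hearts and 1.42 to 2.13 times in lungs. Col6a1 stood at 2.32 to 2.97 times Col6a2 in vehicle and 1.72 to 2.81 times in β-NMN peritoneal cells. The ratio of Col4a1 to Col4a2 was wider, from 0.301 to 1.10 in vehicle and from 0.638 to 1.48 in β-NMN peritoneal cells. It was 1.01 to 1.49 in hearts and 0.769 to 1.01 in lungs.

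β-NMN against vehicle in peritoneal cells. Of the collagen genes tested, 8 of 9 fibrillar, 6 of 8 basement membrane, 4 of 4 type VI and 3 of 7 FACIT genes were called lower with β-NMN and the fibrillar gene Col11a2 was called higher, while 0 of 1 network-forming or anchoring and 0 of 2 transmembrane genes tested were called and neither gene of the remaining class was tested. Of the 44 genes, 31 passed the filter on low counts, and edgeR's quasi-likelihood test with Benjamini-Hochberg adjustment over all 14985 genes tested called 22 of them at an adjusted p under 0.05, 21 lower and 1 higher. Over all genes tested, 51.6% were called, 27.9% lower and 23.7% higher, and 57.3% had an unadjusted p under 0.05, as did 24 of the 31. The median log2 fold change of the 31 was -1.37, beside -0.02 over all genes. In 6 of the 31 every β-NMN mouse lay below every vehicle mouse and in 1 above, beside 14.0% and 12.6% of all genes (26.6% in either direction). The 13 genes that did not pass had at most 52 counts in any library.

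Type I and type III, the main fibril formers, were all called lower. Col1a1 (chromosome 11, 94936224 to 94953042, GRCm38) had 26.5, 85.0 and 457 CPM as lowest, median and highest of the vehicle mice and 3.99, 15.0 and 27.5 CPM with β-NMN. The groups touch, since the highest β-NMN mouse lay just above the lowest vehicle mouse. Col1a1 fell by 3.28 ± 0.65 (SE) on the log2 scale (n = 6 and 6, adjusted p = 0.000693 in edgeR's quasi-likelihood test, exact two-sided permutation p = 0.00433). Without vehicle replicate 3, the highest library, it fell by 2.40 with an adjusted p of 0.000831 from edgeR. Col1a2, the α2 chain of the same trimer (chromosome 6, 4504814 to 4541544), had 37.0, 115 and 361 CPM in vehicle mice and 5.80, 20.6 and 35.4 CPM with β-NMN, with no overlap, and fell by 2.84 ± 0.53 on the log2 scale (2.25 without vehicle replicate 3). Col3a1, the chain of type III (chromosome 1, 45311538 to 45349706), had 15.6, 39.7 and 217 CPM against 3.14, 11.9 and 14.1 CPM. It too did not overlap and fell by 2.73 ± 0.59, or by 1.80 without vehicle replicate 3, where the edgeR adjusted p was 0.00147. For Col1a2 and Col3a1 the exact permutation p was 0.00216, the smallest that 6 against 6 allows.

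Type V, which joins type I in mixed fibrils, moved with them. Col5a1 had 4.88, 14.8 and 45.8 CPM in vehicle mice and 0.713, 2.99 and 3.72 CPM with β-NMN, and fell by 2.88 ± 0.54 on the log2 scale without overlap. Col5a3 fell by 1.89 ± 0.38 and Col5a2 by 2.15 ± 0.53, or by 1.54 without vehicle replicate 3. Per length, Col5a1 stood at 1.48 to 1.96 times Col5a2 in the vehicle mice and at 0.859 to 1.13 times in the β-NMN mice, so the ratio of these chains did not overlap between the groups. All other chain ratios computed did overlap, such as Col1a1 to Col1a2 (1.16 to 2.40 and 1.26 to 1.58). The separation of this ratio was picked out after the values were seen.

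Col27a1 and Col11a2 had the smallest standard errors among the called fibrillar genes. Col27a1, a fibrillar collagen best known from cartilage, had 42.1, 61.6 and 88.3 CPM in vehicle mice and 21.5, 25.3 and 31.8 CPM with β-NMN, and fell by 1.33 ± 0.18 on the log2 scale (edgeR adjusted p = 2.26e-05). Its highest vehicle library was 2.10 times its lowest, against 17.3 times for Col1a1. Col11a2, a chain of cartilage type XI collagen named here after its values were seen, was the single gene called higher. It had 4.85, 5.59 and 6.77 CPM against 6.91, 8.16 and 9.19 CPM, did not overlap and rose by 0.50 ± 0.12. The ninth fibrillar gene tested, Col24a1, was called lower at 1.37 on the log2 scale.

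Of the 8 basement membrane genes, all tested, 6 were called lower. Col4a2 (chromosome 8, 11312805 to 11449287) had the smallest p of the 31. It had 8.05, 15.0 and 23.9 CPM in vehicle mice and 1.47, 2.50 and 4.49 CPM with β-NMN, did not overlap and fell by 2.48 ± 0.30 on the log2 scale (edgeR adjusted p = 9.13e-06). Col4a1, its partner, had 2.73, 12.9 and 29.6 CPM against 1.47, 2.25 and 5.00 CPM, overlapped and fell by 2.28 ± 0.49. Col15a1, a basement membrane zone collagen, had 5.09, 6.10 and 18.2 CPM against 2.17, 2.62 and 3.68 CPM, did not overlap and fell by 1.68 ± 0.30. Col18a1, whose C-terminal fragment is endostatin, Col4a5 and Col4a6 were also called lower. Col4a3 and Col4a4, whose chains join that of Col4a5 in the α3α4α5 network of lung and kidney, were not called and stayed at or under 0.827 CPM in every library.

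Among the other 25, of which 14 were tested, 7 were called lower and 7 were not called, a share called close to the 51.6% over all genes (27.9% lower). All 4 type VI genes tested were lower: Col6a3 had 2.59, 12.7 and 23.5 CPM against 0.614, 2.97 and 3.63 CPM and fell by 2.33 ± 0.50 on the log2 scale, and Col6a1, Col6a2 and Col6a5 fell by 2.06, 2.04 and 1.35. Of 7 FACIT genes tested, Col12a1, Col16a1 and Col19a1 were called lower, a share called below that over all genes. Col12a1 had 0.852, 2.82 and 5.27 CPM against 0.133, 0.325 and 0.931 CPM and fell by 2.57 ± 0.52. Col14a1 had a log2 fold change of -1.16 with an edgeR adjusted p of 0.0505, and was called on leaving out vehicle replicate 1, 2 or 6 or β-NMN replicate 4. The epithelial collagens Col17a1 and Col7a1 had values of 0.69 and -0.20 and were not called (0.11 for Col17a1 without β-NMN replicate 4, and 0.02 for Col7a1 without vehicle replicate 3).

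**Figure D2:**
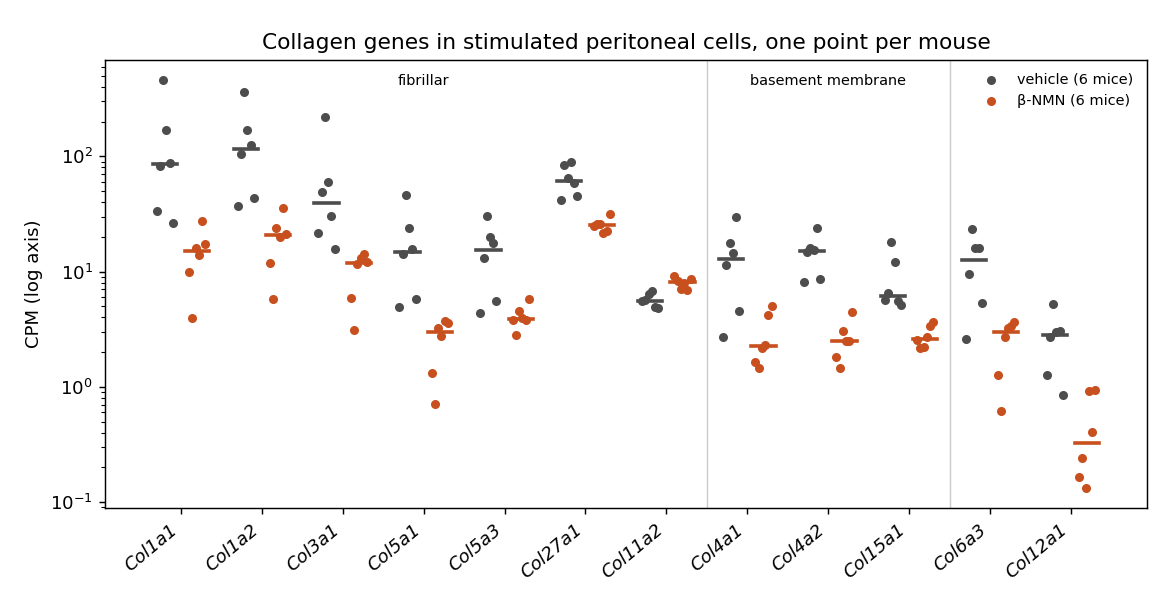
CPM (log axis) of 12 collagen genes in stimulated peritoneal cells, 1 point per mouse and a line at the median, for 6 vehicle (grey) and 6 β-NMN (orange) mice. The vehicle points of Col1a1 run from 26.5 to 457 and its β-NMN points from 3.99 to 27.5, while Col11a2 is the single gene of the plot with its β-NMN points above its vehicle points.

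The vehicle libraries differed among themselves in the same genes. Vehicle replicate 3 was the highest of the 12 libraries for 19 of the 31 genes and β-NMN replicate 2 the lowest for 19, counts not made over all genes. As shares of all raw counts (CPM without TMM scaling), the fibrillar genes took from 145 to 1272 CPM in vehicle mice (median 350.1) and from 51.9 to 118 with β-NMN (median 93.4). The basement membrane genes took from 20.7 to 82.1 (median 56.5) and from 10.0 to 19.3 (median 15.0), and the other collagens from 30.4 to 194 (median 86.5) and from 12.7 to 40.8 (median 31.0). Shares of the first 2 classes did not overlap between the groups, and those of the third did.

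Some markers of cells that make collagen were called as well, in lists of 3 to 5 tested genes that are read beside the 51.6% of all genes called in this comparison (27.9% lower). The 6 smooth muscle and pericyte markers summed to between 8.23 and 36.2 CPM in vehicle mice and between 3.53 and 5.54 CPM with β-NMN, 2 of 4 tested were called lower (Pdgfrb and Des), and Cnn1 and Rgs5 did not pass the filter. The 7 mesothelial markers summed to between 2.80 and 16.2 CPM and between 1.56 and 5.47 CPM, with 4 of 5 tested called lower. The median log2 fold change of these 5 was -1.545, and -0.90 without vehicle replicate 5. Of the 8 fibroblast markers, which summed to between 33.9 and 44.4 CPM and between 24.0 and 36.7 CPM, 4 were tested and Pdgfra, Fap and Pi16 were called lower. Dpt, Tcf21, Mfap5 and Clec3b did not pass the filter, and none of the markers of these 3 lists was at 0 in all 12 libraries. The pericyte sums did not overlap between the groups, and the mesothelial and fibroblast sums did. The endothelial sums overlapped as well (63.3 to 143 CPM and 65.2 to 116 CPM, 2 of 3 tested called lower), and vehicle replicate 3 had the lowest of them. The 6 lung epithelial markers summed to between 3.52 and 6.70 CPM and between 0.918 and 2.57 CPM, without overlap, with 2 of 3 tested called lower. Vehicle replicates 3 and 4 had the highest pericyte sums (36.2 and 30.3 CPM) and the highest fibrillar shares (1272 and 597 CPM of raw counts). Vehicle replicate 1 had the lowest fibrillar share of the vehicle mice (145 CPM). Its fibroblast sum (42.0 CPM) came next after that of replicate 3 (44.4 CPM). Among the β-NMN mice, replicate 3 had the lowest pericyte sum (3.53 CPM) and a fibrillar share of 100.5 CPM, above their median of 93.4 CPM. The part of these cells in the result was not tested.

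**Figure D3:**
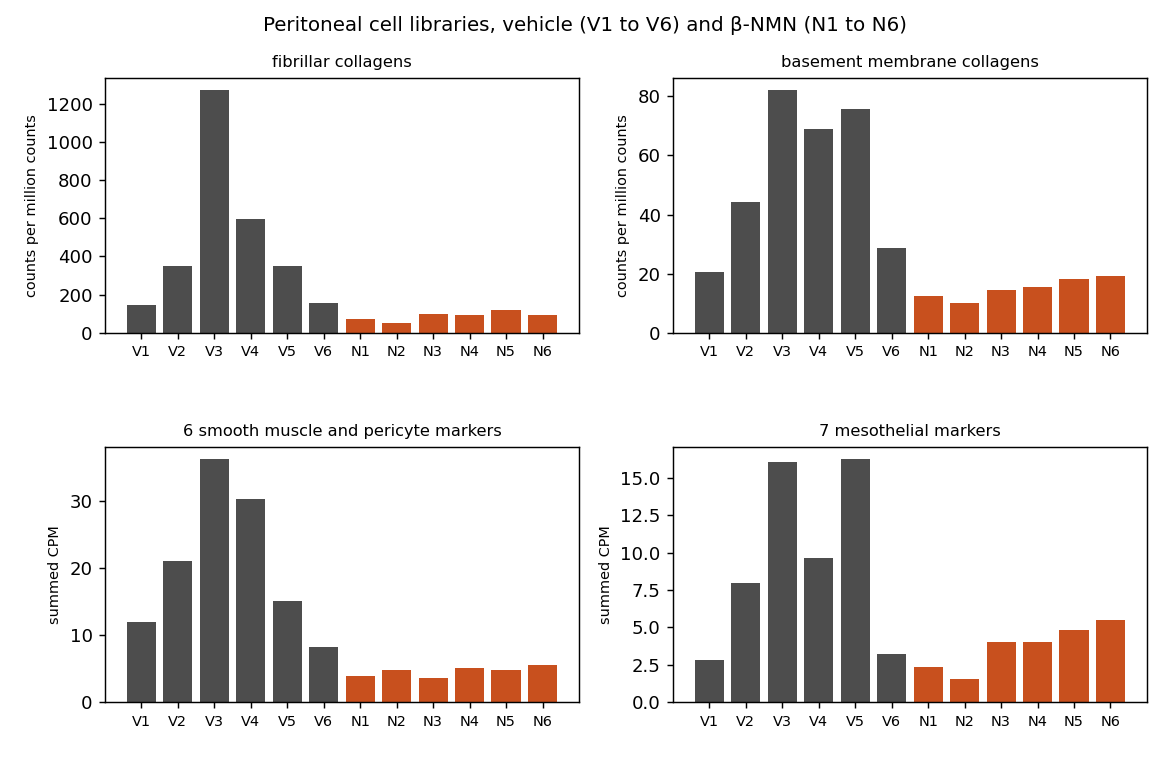
Peritoneal cell libraries of the 6 vehicle (V) and 6 β-NMN (N) mice: CPM of raw counts taken by the fibrillar and of the basement membrane collagens (top), and summed CPM of the smooth muscle and pericyte and of the mesothelial markers (bottom). The fibrillar bars run from 145 to 1272 in vehicle mice and from 51.9 to 118 with β-NMN. V3 and V4 lead both the fibrillar and the pericyte panel, while V5 leads the mesothelial panel (16.2 CPM).

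Of 6 macrophage markers, Cd68, Mrc1 and Lyz2 were called higher and Cd14 lower, beside 51.6% of all genes called, and their sums overlapped (6530 to 13020 CPM in vehicle and 10080 to 11920 CPM in β-NMN mice). The neutrophil markers summed to between 475 and 982 CPM and between 327 and 455 CPM, with 4 of 5 called lower and the fifth, Retnlg, called higher (1.38 ± 0.40 on the log2 scale). Of 5 lymphocyte markers 3 were called lower (Cd3e, Cd3d and Ms4a1), with overlapping sums of 26.7 to 130.5 CPM and 19.1 to 76.2 CPM. Of 3 cardiomyocyte markers tested, 1 was called higher (Tnni3, without overlap), with sums of 0.875 to 2.53 CPM and 2.07 to 4.74 CPM, and 0 of 3 skeletal muscle and 0 of 2 Schwann cell markers were called. Their part in the result was not tested.

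Depth also fell into 2 clusters, with vehicle replicates 4, 5 and 6 and β-NMN replicates 1 and 2 between 90571560 and 112456050 counts and the other libraries between 31126823 and 53319385. This split was chosen after seeing the data, and no label calls it a batch. Within the deeper libraries 22 of 37 tested collagen genes were called, 21 of them called over all libraries, beside 30.5% of all genes. Within the shallower libraries 14 of 34 were called, all of them lower, beside 27.9%, and Col6a1, Col6a5, Col4a5, Col4a6, Col18a1, Col19a1, Col24a1 and Col11a2 were no longer called. Col4a1 fell by 3.31 in the deeper and by 1.61 in the shallower libraries, and Col1a1 by 3.70 and 3.32.

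The genes that process and bind collagen gave mixed counts in the same cells, where 51.6% of all genes were called, 27.9% lower and 23.7% higher. Of 17 tested genes for hydroxylation, glycosylation and folding, 6 were called lower and 4 higher, a share called close to that over all genes, with a median log2 fold change of 0.08. Serpinh1, the collagen chaperone HSP47, fell by 2.58 ± 0.50 on the log2 scale and Fkbp10, a procollagen folding enzyme, by 2.83 ± 0.60. P4ha1, a catalytic subunit of prolyl 4-hydroxylase, rose by 0.61 ± 0.10 and P3h2, a prolyl 3-hydroxylase, by 1.19 ± 0.25. Of 12 genes for procollagen processing and crosslinking, 9 were lower and 0 higher at the adjusted p of edgeR (9 at an unadjusted p under 0.05), with a median of -1.66. They included Adamts14 (-1.78 ± 0.20), which trims procollagen, and the lysyl oxidase relatives Loxl1 (-2.46 ± 0.41) and Loxl2 (-2.36 ± 0.52).

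The lists of collagen partners are set beside the same 51.6% of all genes called (27.9% lower). Among 11 collagen-binding matrix proteins 8 were lower, including Fn1, fibronectin, at 2324 CPM as vehicle median and 897 CPM with β-NMN (-1.45 ± 0.16), Thbs1 (-1.62 ± 0.22) and the tenascins Tnxb and Tnc. Of 16 partners in the basement membrane, 10 were lower and 1 higher. Lamb3, a laminin chain, fell by 4.10 ± 0.29 on the log2 scale, Nid1, nidogen, by 2.01 ± 0.16 and Hspg2, perlecan, by 2.68 ± 0.49. Of 10 receptors and uptake genes, 5 were lower, among them the integrin genes Itga1 (-1.38 ± 0.20) and Itga2 and the collagen receptor kinases Ddr1 and Ddr2, and 1 was higher. Of 11 TGF-β and fibroblast activation genes 6 were lower and 0 higher, including Pdgfb (-2.74 ± 0.20), Acta2 (-2.52 ± 0.41) and Tgfb1 (-0.37 ± 0.11). The shares called in these last 2 lists were close to that over all genes.

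Upstream windows of 2 genes with a large fall are shown since these genes moved together while their windows differ in base composition. The letters are from RefSeq, the 250 bases before the start on the gene's strand (GRCm38.p6), with matches on either strand to the letters TATAAA of the TATA box, CCAAT of the CAAT box and GGGCGG of the GC box in capitals. The window of Col3a1 lies at chr1:45311288-45311537 (plus strand) and that of Col5a1 at chr2:27886175-27886424 (plus strand).
Col3a1: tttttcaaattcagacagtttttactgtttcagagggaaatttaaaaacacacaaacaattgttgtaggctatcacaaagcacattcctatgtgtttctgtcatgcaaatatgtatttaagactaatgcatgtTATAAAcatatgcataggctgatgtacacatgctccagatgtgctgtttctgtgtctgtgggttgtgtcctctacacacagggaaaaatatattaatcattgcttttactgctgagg
Col5a1: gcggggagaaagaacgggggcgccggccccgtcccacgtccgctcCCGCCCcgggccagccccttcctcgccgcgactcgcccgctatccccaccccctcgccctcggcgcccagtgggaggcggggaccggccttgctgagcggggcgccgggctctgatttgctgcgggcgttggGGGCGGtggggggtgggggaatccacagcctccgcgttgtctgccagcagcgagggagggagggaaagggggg
The Col3a1 window is 35.2% G and C with 1 TATAAA match and no GGGCGG, and the Col5a1 window is 76.4% G and C with 2 GGGCGG matches and no TATAAA. Over the 35 collagen genes with a window in the RefSeq table, 5 held TATAAA, 12 held CCAAT and 21 held GGGCGG, against 13.0%, 34.5% and 32.9% of 27025 genes. The matches do not overlap each other in the printed windows, and a match is of letters alone.

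β-NMN against vehicle in hearts. In CLP hearts 35 collagen genes were tested and 0 were called by edgeR's quasi-likelihood test, as were 0% of all 16245 genes. At an unadjusted p under 0.05 there were 4 of the 35, beside 11.3% of all genes, and DESeq2 called 0 of them. The median log2 fold change of the 35 was -0.11, with 16 positive and 19 negative. The groups did not overlap at 4 genes, beside 23.1% of all genes: Col11a2, Col28a1 and Col4a4 were above the vehicle hearts (11.6% of all genes) and Col25a1 below (11.5%). With 3 mice against 3 an exact two-sided permutation test cannot give a p under 0.1.

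The 4 genes with an unadjusted p under 0.05 were expressed at low levels. Col11a2 had 2.46, 2.52 and 2.88 CPM in vehicle hearts and 4.39, 3.36 and 5.60 CPM in β-NMN hearts, all above the vehicle hearts (log2 fold change 0.77 ± 0.24, edgeR adjusted p = 0.435). Col25a1, a transmembrane collagen, had 0.369, 1.37 and 0.378 CPM and then 0.112, 0.0924 and 0.248 CPM, all below (-2.16 ± 0.70). Col6a6, a type VI chain, had 0.891, 1.15 and 1.63 CPM and then 3.24, 4.01 and 1.54 CPM, which overlapped (1.26 ± 0.42). Col28a1 had 1.52, 1.81 and 2.15 CPM and then 3.05, 2.35 and 3.71 CPM, without overlap (0.74 ± 0.26). All 3 of Col25a1, Col6a6 and Col28a1 also had an adjusted p of 0.435 from edgeR.

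The abundant chains overlapped between treatments. Col3a1 had 224, 436 and 159 CPM in vehicle hearts and 118, 208 and 122 CPM with β-NMN (-0.87 ± 0.41, edgeR adjusted p = 0.442). Col1a1 had 253, 293 and 155 CPM and then 144, 253 and 152 CPM (-0.35 ± 0.31), and Col1a2 had -0.49 ± 0.34. Col4a1 had 1053, 1186 and 747 CPM and then 593, 810 and 1038 CPM (-0.29 ± 0.27). Col4a2 had 844, 707 and 602 CPM and then 470, 616 and 914 CPM (-0.11 ± 0.28), and its sign turned without vehicle replicate 1 or without β-NMN replicate 1. Leaving out single hearts moved Col1a1 between -0.66 (without β-NMN replicate 2) and -0.16 (without vehicle replicate 2), Col1a2 between -0.75 and -0.12 (the same hearts) and Col4a1 between -0.50 (without β-NMN replicate 3) and -0.10 (without β-NMN replicate 1).

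Vehicle heart replicate 2 stood apart. It was the highest of the 6 hearts for 16 of the 35 collagen genes, a count not made over all genes. Col13a1, a transmembrane collagen, stood there at 15.8 CPM against 1.80 to 2.46 CPM in the other 5, and Col3a1 at 436 CPM. The fibroblast markers of this heart summed to 3344 CPM against 1667 and 1690 CPM in the other vehicle hearts, its mesothelial markers to 119 CPM against 10.4 and 15.2 CPM, and its cardiomyocyte markers to 33910 CPM against 43110 and 44640 CPM. Its smooth muscle and pericyte markers were low, at 1834 CPM against 3060 and 3203 CPM. Its adipocyte, Schwann cell and lymphocyte sums were high, at 16.7, 41.8 and 3.54 CPM. The other vehicle hearts had at most 1.77, 14.2 and 0.369 CPM of these. Their part in the result was not tested. Without this heart Col3a1 moved to -0.37 on the log2 scale (edgeR adjusted p = 0.681), Col25a1 to -1.24 and Col13a1 to 0.19, the median over 36 tested collagen genes was 0.04, and again 0 were called.

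Some marker sums of the hearts also differed between the treatments without overlap. The 6 smooth muscle and pericyte markers summed to between 1834 and 3203 CPM in vehicle and between 3368 and 4051 CPM in β-NMN hearts, the 6 endothelial markers to between 898 and 932 CPM and between 961 and 1121 CPM, and the 6 cardiomyocyte markers to between 33910 and 44640 CPM and between 46040 and 48530 CPM. The 7 skeletal muscle markers summed to between 88.6 and 185 CPM and between 221 and 586 CPM, with 1 of the 7 at 0 in all 6 hearts. The 5 neutrophil markers summed to between 17.9 and 32.1 CPM and between 12.2 and 13.4 CPM. The fibroblast sums overlapped (1667 to 3344 CPM and 1048 to 1999 CPM), no marker of the other lists named here was at 0 in all 6 hearts, and their part in the result was not tested.

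The other lists gave no calls in hearts. Of the 12 procollagen processing genes tested, 11 had values below 0, and their median was -0.71 on the log2 scale, beside -0.01 over all genes. In 4 of the 12 every β-NMN heart lay below the vehicle hearts, beside 11.5% of all genes, and in 0 above. An unadjusted p under 0.05 from edgeR was reached by 5, beside 11.3% of all genes. Lox, lysyl oxidase, had 28.1, 41.9 and 128 CPM as lowest, median and highest vehicle hearts and 20.3, 21.5 and 24.5 CPM with β-NMN (-1.58 ± 0.54, edgeR adjusted p = 0.435). Without vehicle heart replicate 2 Lox had -0.67 and the median of the 12 was -0.39. The 15 basement membrane partners had a median of 0.29 (0.17 without that heart and 0.16 without β-NMN heart replicate 3), and the laminin chains Lama5, Lamb1 and Lamb2, 3 of the 15, lay above the vehicle hearts in every β-NMN heart, beside 11.6% of all genes (0.75, 0.48 and 0.46 on the log2 scale, edgeR adjusted p = 0.435).

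β-NMN against vehicle in lungs. In CLP lungs 33 collagen genes were tested and 0 were called by edgeR's quasi-likelihood test, as were 0% of all 17008 genes. At an unadjusted p under 0.05 there was 1, beside 1.77% of all genes, and DESeq2 called 0 of them. The median log2 fold change of the 33 was 0.31, with 25 positive and 8 negative, beside 0.00 over all genes. The groups did not overlap at 3 genes, beside 8.21% of all genes. All 3 were higher with β-NMN (4.47% of all genes) and none lower (3.75%).

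Col6a3, whose long α3 chain completes the type VI trimer, was the gene with the unadjusted p under 0.05. It had 13.6, 2.17 and 18.9 CPM in the vehicle lungs and 33.3, 39.7 and 30.0 CPM in the β-NMN lungs, with no overlap (log2 fold change 1.55 ± 0.65, edgeR adjusted p = 0.969). Col5a3 had 2.83, 0.722 and 3.23 CPM and then 5.48, 4.99 and 5.13 CPM, also without overlap (1.16 ± 0.53, edgeR adjusted p = 0.969). Col23a1, a transmembrane collagen, was the third without overlap, at 0.25 ± 0.24 (0.08 without vehicle lung replicate 2). Col15a1 (-0.55 ± 0.35), Col16a1 (0.73 ± 0.51) and Col4a5 (0.71 ± 0.53) had the next smallest p and overlapped. Without vehicle lung replicate 2 Col16a1 and Col4a5 had 0.34 each, as did Col4a5 without β-NMN lung replicate 2.

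The abundant chains again overlapped. Col1a1 had 459, 119 and 329 CPM in vehicle lungs and 217, 317 and 308 CPM with β-NMN (-0.11 ± 0.48). Col3a1 had 253, 25.1 and 175 CPM and then 163, 244 and 201 CPM (0.42 ± 0.71). Col4a1 had 1028, 308 and 1006 CPM and then 611, 1021 and 1028 CPM (0.18 ± 0.50). In each of these genes the second vehicle lung is the lowest. Col1a2 and Col4a2 had log2 fold changes of -0.02 ± 0.38 and 0.19 ± 0.55. Without vehicle lung replicate 1 Col1a1 and Col1a2 turned to 0.33 and 0.36 and Col3a1 had 1.01.

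Vehicle lung replicate 2, the shallowest library, was the lowest of the 6 lungs for 25 of the 33 collagen genes, a count not made over all genes. Its endothelial markers summed to 1309 CPM against 1778 and 2160 CPM in the other vehicle lungs, its macrophage markers to 1290 CPM against 4014 and 4330 CPM, its fibroblast markers to 3728 CPM against 4769 and 4800 CPM, and its lung epithelial markers to 97000 CPM against 74690 and 76780 CPM. The macrophage sums of the β-NMN lungs (5014 to 5449 CPM) did not overlap those of the vehicle lungs. Nor did the cardiomyocyte sums (269 to 541 CPM in vehicle and 73.0 to 256 CPM in β-NMN lungs), of which vehicle lung replicate 2 had the highest. The part of these cells in the result was not tested. Without vehicle lung replicate 2 the median log2 fold change over 35 tested genes was 0.08, Col3a1, Col4a1 and Col4a2 turned to -0.08, -0.20 and -0.23, and Col6a3 and Col5a3 went down to 1.08 and 0.78 with edgeR adjusted p of 0.804 and 0.991. Of the other lists, Ogn (osteoglycin, a collagen-binding proteoglycan) had 17.3, 34.7 and 38.7 CPM as lowest, median and highest vehicle lungs and 56.7, 57.6 and 142 CPM with β-NMN (1.49 ± 0.48, edgeR adjusted p = 0.969, or 0.91 without β-NMN lung replicate 2), and 0 genes of any list were called.

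**Figure D4:**
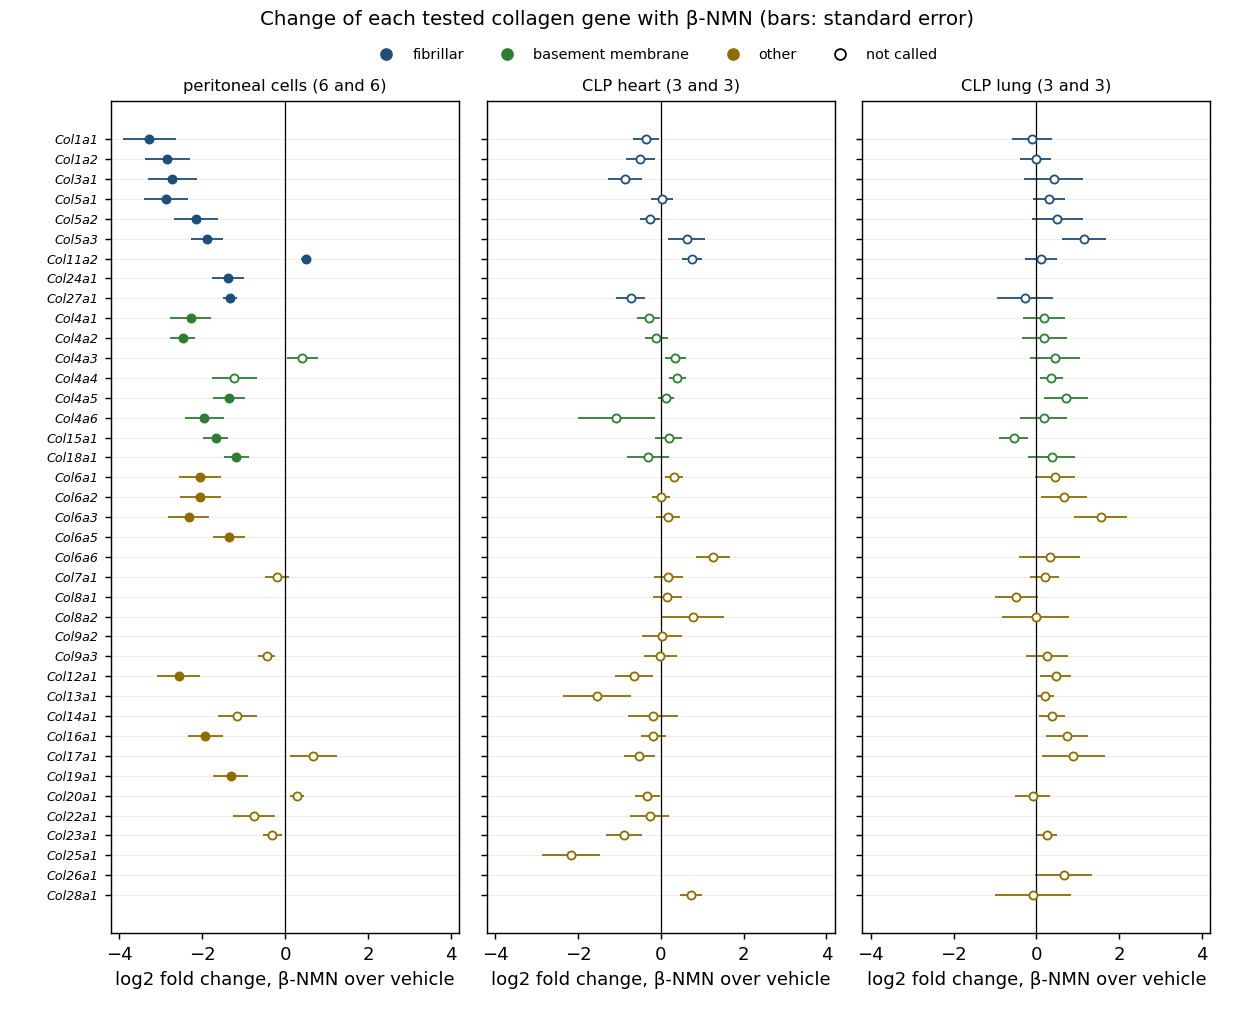
Log2 fold change with β-NMN over vehicle (bars are standard errors) of each tested collagen gene in peritoneal cells, CLP hearts and CLP lungs; filled points had an adjusted p under 0.05 in edgeR. Of 31 genes in peritoneal cells 22 are filled, 21 of them left of 0, and none of the 35 heart and 33 lung genes is filled.

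Difference of the β-NMN effect between lung and heart. An interaction term over the 12 CLP libraries was fitted for 36 collagen genes, and edgeR's quasi-likelihood test called 0 of them and 0% of all 18318 genes. At an unadjusted p under 0.05 there was 1, beside 4.35% of all genes, and DESeq2 called 0. The smallest p belonged to Col23a1 (1.13 ± 0.50 on the log2 scale, lung minus heart), Col13a1 (1.76 ± 0.89) and Col12a1 (1.11 ± 0.63), each with an adjusted p of 0.960. Without vehicle heart replicate 2 the values were 0.55 for Col23a1, 0.02 for Col13a1 and 0.65 for Col12a1, and without β-NMN lung replicate 2 Col12a1 had 0.71.

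Lung against heart. Many collagen genes differed between the organs, in both directions. Averaged over treatments, 36 were tested and 23 were called by edgeR's quasi-likelihood test, 13 higher in lung and 10 higher in heart, beside 64.8% of all 18318 genes (35.9% and 28.9%). At an unadjusted p under 0.05 there were 25, beside 67.9% of all genes. The share of collagen genes called was close to that of all genes. Their median difference was -0.12 on the log2 scale (lung over heart), beside 0.14 over all genes, and 12 of the 36 did not overlap between the 6 lungs and the 6 hearts, beside 43.4% of all genes. Of these, 6 were higher (21.6% of all genes) and 6 lower (21.8%). The 2 organs came from the same mice, and with the mouse as a block 22 were called, beside 62.3% of all genes in that fit.

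The fibril formers of type I and III were not called: the differences were -0.17 ± 0.32 for Col1a1, 0.00 ± 0.28 for Col1a2 and -0.86 ± 0.45 for Col3a1 on the log2 scale (edgeR adjusted p of 0.665, 0.997 and 0.116). Col3a1 was called without vehicle lung replicate 1 (-1.17, edgeR adjusted p = 0.0477). The strongest fibrillar difference was in Col5a3, a minor type V chain. On the scale of the 12 libraries it had 12.6, 44.2 and 59.7 CPM as lowest, median and highest heart and 0.530, 3.30 and 4.26 CPM in lungs, without overlap, and was lower in lung by 3.88 ± 0.38 on the log2 scale, a 14.7-fold difference (edgeR adjusted p = 3.70e-06). Col5a1 was lower by 0.93 ± 0.27 and Col27a1 higher by 1.41 ± 0.40 (0.94 without vehicle lung replicate 2).

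Among basement membrane genes, Col4a3 and Col4a4 were higher in lung, where the α3α4α5 network lies in the alveolar basement membrane. Col4a3 had 2.48, 4.05 and 4.88 CPM in hearts and 24.8, 89.0 and 161 CPM in lungs (4.46 ± 0.41, 22.0-fold, edgeR adjusted p = 2.08e-06). Col4a4 had 7.28, 9.52 and 14.2 CPM in hearts and 75.6, 100.6 and 158 CPM in lungs (3.42 ± 0.19, 10.7-fold, edgeR adjusted p = 4.24e-08, the smallest p of the 36). Neither gene overlapped between the organs. Col15a1 went the other way, with 22.0, 30.7 and 54.3 CPM in hearts and 2.18, 2.83 and 4.25 CPM in lungs (-3.45 ± 0.25, 10.9-fold lower), again without overlap.

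Col4a1 was called lower in lung by 0.77 ± 0.32 on the log2 scale, just inside the threshold (edgeR adjusted p = 0.0479), and this call was lost on leaving out any of 6 single libraries. These were heart vehicle replicate 1, heart β-NMN replicates 2 and 3 and all 3 β-NMN lungs, one at a time, with adjusted p of 0.0576 to 0.113. Col4a2 had -0.28 ± 0.34 and was not called. Col4a6 was called higher in lung (1.5 ± 0.60, edgeR adjusted p = 0.0444) and Col4a5 was not (-0.70 ± 0.32, 0.0724). The call of Col4a6 was lost on leaving out any of 9 of the 12 libraries, all but heart vehicle replicate 2, lung vehicle replicate 2 and heart β-NMN replicate 2, with edgeR adjusted p of up to 0.108, and Col4a5 was called without heart vehicle replicate 2, lung vehicle replicate 3 or lung β-NMN replicate 2. With the mouse as a block Col4a6 and Col22a1 lost their calls (edgeR adjusted p of 0.0528 and 0.0606) and Col4a5 was called lower in lung (-0.85, 0.0184).

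The type IV genes lie in head-to-head pairs, and the stretches between the starts are shown since both genes of the Col4a3 and Col4a4 pair differed the same way between the organs. Col4a4 and Col4a3 start 72 bp apart on chromosome 1, the first bases of Col4a1 and Col4a2 overlap by 22 bp on chromosome 8, and Col4a6 and Col4a5 start 1309 bp apart on chromosome X. The plus strand of GRCm38.p6 is printed from RefSeq, for the overlap at chr8:11312805-11312826 and the gap at chr1:82586850-82586920, with a GGGCGG match in capitals.
Col4a1-Col4a2: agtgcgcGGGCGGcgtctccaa
Col4a3-Col4a4: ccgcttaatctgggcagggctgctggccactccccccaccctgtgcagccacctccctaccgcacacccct
The gap holds none of the 3 motifs. Per length, Col4a3 stood at 0.363 to 0.526 times Col4a4 in hearts and at 0.349 to 1.08 times in lungs.

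The remaining classes differed in low and mid-level genes. Col8a2, a network-forming collagen, had 0.110, 0.305 and 1.11 CPM in hearts and 1.06, 12.3 and 17.6 CPM in lungs (4.78 ± 0.68 on the log2 scale) and overlapped in the shallowest lung. Col23a1 had 2.31, 3.35 and 9.06 CPM in hearts and 42.6, 71.1 and 74.9 CPM in lungs (4.05 ± 0.28), and Col7a1, the anchoring fibril collagen, 1.06, 1.47 and 1.97 CPM and 5.72, 7.81 and 11.1 CPM (2.48 ± 0.27). Neither of these overlapped. All 3 transmembrane genes tested, Col13a1, Col17a1 and Col23a1, were called higher in lung, beside 35.9% of all genes.

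Heart led for several genes of the other classes. Col6a6 had 1.14, 1.99 and 5.14 CPM in hearts and 0.110, 0.414 and 0.742 CPM in lungs (-2.59 ± 0.43), and Col28a1 had 1.95, 2.86 and 4.67 CPM and 0, 0.663 and 0.940 CPM (-2.31 ± 0.51), both without overlap. Col8a1, the partner of Col8a2 in type VIII, was lower in lung by 1.16 ± 0.32, while Col8a2 was higher. Col6a1, Col6a2 and Col6a3, the common type VI trimer, were not called (0.46, -0.46 and -0.53), though Col6a1 was without vehicle lung replicate 2 (0.66). Without vehicle mouse 2 in both organs 26 of 36 genes were called, beside 75.1% of all genes in that fit. They held all of the 23, with Col4a5, Col5a2 and Col6a1 added.

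Other genes of the pathway were called in both directions, in shares to be read beside the 64.8% of all genes called between lung and heart. Of 16 basement membrane partners 5 were higher and 8 lower in lung: the laminin chain Lamb3 (1.99 ± 0.19 on the log2 scale) was higher, and Hspg2 (-2.35 ± 0.22) and Nid2 (-2.79 ± 0.31) lower. Of 14 collagen-binding proteins 3 were higher, with Sparc at 1.65 ± 0.17, and 5 lower, with Thbs2 at -5.33 ± 0.44 and Lum, lumican, at -3.73 ± 0.30. Of 12 procollagen processing and crosslinking genes 3 were higher, including Pcolce2 (2.25 ± 0.22) and Lox (2.05 ± 0.39), and 3 lower, including Adamts3 (-3.02 ± 0.47). Of 18 hydroxylation and folding genes 1 was higher and 5 lower, including Fkbp10 (-1.75 ± 0.15), Plod1 (-1.62 ± 0.26) and P3h4 (-1.68 ± 0.22). Of 10 receptors and uptake genes 3 were higher, with Itga2 at 2.65 ± 0.29, and 1 lower, and of 11 TGF-β and fibroblast activation genes 4 were higher and 3 lower. Fibroblast markers were called in both directions (4 higher and 3 lower of 8).

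**Figure D5:**
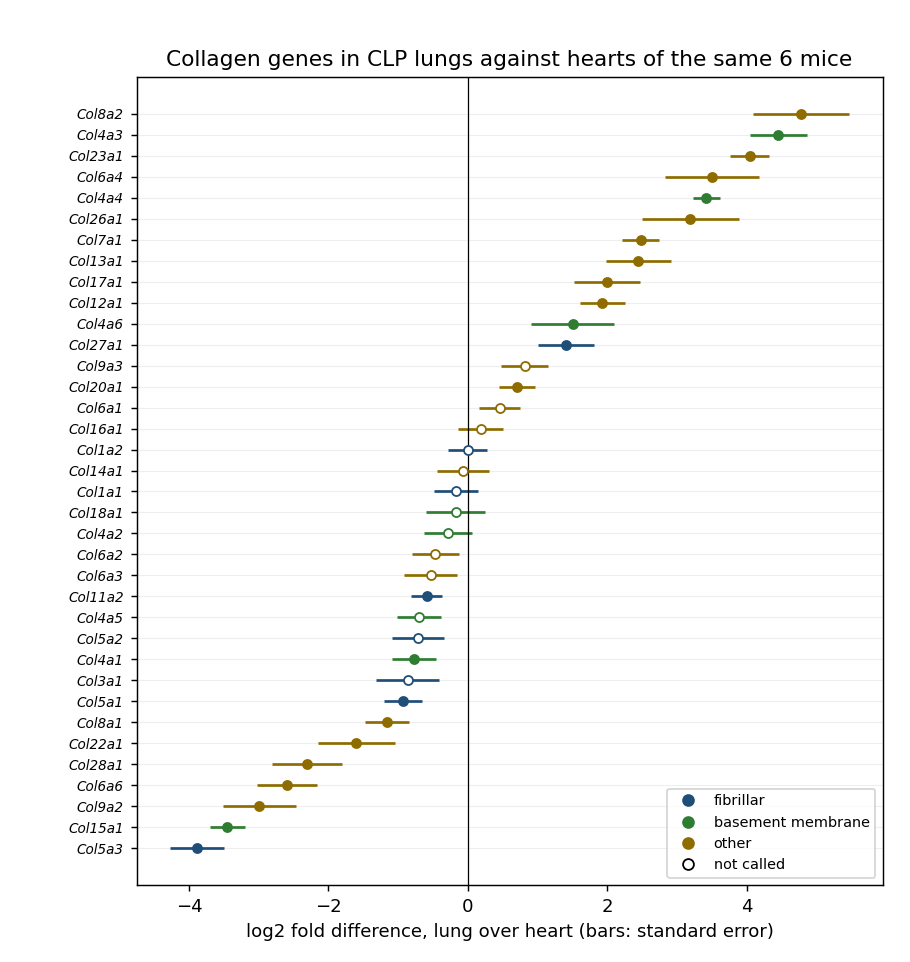
Log2 difference of lung over heart, with standard errors, for the 36 tested collagen genes, ordered by size and coloured by class; filled points had an adjusted p under 0.05 in edgeR. Col8a2 (4.78), Col4a3 (4.46) and Col23a1 (4.05) lie at the lung end and Col5a3 (-3.88) and Col15a1 (-3.45) at the heart end, with Col1a1 and Col1a2 near 0.

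Side by side, the same gene gave different values in the 3 tissues. Col5a3 had -1.89 in peritoneal cells, 0.62 in hearts and 1.16 in lungs, Col6a3 had -2.33, 0.17 and 1.55, and Col11a2 had 0.50, 0.77 and 0.11 on the log2 scale. Of these, 2 small values turned sign on leaving out 1 library, Col6a3 in hearts (-0.16 without β-NMN replicate 2) and Col11a2 in lungs (-0.13 without vehicle replicate 1), and Col5a3 in hearts had 0.23 without vehicle replicate 2. Peritoneal cells and organs were not tested against each other. No collagen gene lay without overlap in opposite directions in 2 of the tissues.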

How the data were processed

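For each experiment the authors deposited raw read counts per gene symbol, made from poly(A) RNA with STAR 2.7.3a and featureCounts 2.0.0 on mm10 per the labels. For annotation and strandedness, the setting was not given in the sources used here. Reads from stretches where genes overlap may therefore be missing or counted to the other gene. Both tables (12 peritoneal libraries, 12 CLP libraries) were read as counts, and each comparison was fitted with edgeR 4.0.16 in R 4.3.3: filterByExpr, TMM, estimateDisp, the older quasi-likelihood F-test, and Benjamini-Hochberg adjustment over all genes tested (called at adjusted p under 0.05). Log2 CPM for exact two-sided permutation tests of single genes used a prior count of 2. Lengths and positions are from GENCODE M21 (GRCm38), upstream windows from RefSeq. The members and lists were chosen with earlier results of these data known. Named were Col1a1, Col1a2, Col3a1, Col4a1 and Col4a2 in every tissue, up to 10 called members with the smallest p per β-NMN comparison (or the 5 with the smallest p), the 5 largest called differences each way between lung and heart at a mean log2 CPM of at least 0, the 3 smallest p of the interaction, and up to 4 genes per list (1 of these is not reported here). Others were named for their class or where a call or value changed, after their values were seen. No 2 libraries of a group agreed within sampling noise (smallest chi-square per degree of freedom 22.4). Organs of one mouse pair by the labels. Their deviations correlated at 0.04 to 0.15. Each fit was run on simulated data with the same dispersion for every gene and no library set apart. Those runs therefore do not show how the fits handle the uneven libraries seen here. Nothing says whether the peritoneal libraries came from separate cultures beyond the mouse, so p-values measure the spread between mice.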

Additional observations from a re-analysis of the deposited data

Results flagged for a closer look

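In 30 groups of 6 peritoneal libraries checked (12 genes and the shares of 3 classes, in each treatment), 2 held a library far from the others, where chance gives about 1 in 20. Vehicle replicate 3 had 457 CPM of Col1a1, against 169 CPM in the next vehicle library, and 217 CPM of Col3a1, against 60.4 CPM. Both genes kept their call without it (log2 fold changes of -2.40 and -1.80). The same library had the highest pericyte (36.2 CPM), fibroblast (44.4 CPM) and macrophage (13020 CPM) marker sums and the lowest endothelial sum (63.3 CPM). The part of these cells in these values was not tested.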

How the results depend on the processing

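The 5 counts of called collagen genes stayed within 1.5 times of the reported ones under the DESeq2 test or its scaling, without the filter on low counts, with the newer quasi-likelihood form, both organs in one fit and the replicate block, with 1 exception. That was 14 called genes in the shallower peritoneal libraries, a split chosen after seeing the data, against 22 over all libraries. Leaving out single libraries gave 22 to 23 called genes in peritoneal cells, 19 to 26 between lung and heart, and 0 in hearts, in lungs and for the interaction. With the replicate number as a block, 22, 0 and 0 genes were called in peritoneal cells, hearts and lungs. The numbers pair no libraries across treatments by the labels, and their deviations correlated at -0.17 to 0.13 in peritoneal cells, 0.07 to 0.24 in hearts, where each number matched its own best, and -0.52 to 0.30 in lungs. With the mouse as a replicate block 22 were called between lung and heart, beside 62.3% of all genes, and 0 for the interaction.

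Small values turned sign. In lungs the replicate block moved Col1a1 to 0.069 and Col1a2 to 0.085 on the log2 scale. Leaving out single libraries gave in hearts -0.40 to 0.10 for Col4a2, and in lungs -0.49 to 0.33 for Col1a1, -0.31 to 0.36 for Col1a2, -0.082 to 1.01 for Col3a1, -0.20 to 0.44 for Col4a1 and -0.23 to 0.51 for Col4a2. Between lung and heart it gave -0.40 to 0.031 for Col1a1 and -0.21 to 0.16 for Col1a2. There the mouse as a block moved Col1a2 to 0.0039, and leaving out vehicle mouse 2 moved Col1a1 to 0.0087 and Col1a2 to 0.22. The cause was not tested.

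Col3a1 and Col4a1 kept their sign between lung and heart, at -1.17 to -0.61 and -0.92 to -0.58 with single libraries left out, with the changes of call given above. Of the 31 members tested in peritoneal cells, 24 reached an exact permutation p under 0.05 with a prior count of 2 and of 0.5. The exact test was not run over all genes, so no share stands beside this count. Class shares moved by less than 1 SD with TMM library sizes. Over all genes, where edgeR called 0, the DESeq2 test called 262 in hearts, 9 in lungs and 14 for the interaction, with 0 collagen genes among them. Lungs are the shallowest and most variable samples.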
